A study of Mus musculus with 24 samples.

Results

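The genes described here are 10 genes of lipid droplets and fatty acid handling in a mouse hypothalamic cell line: 4 perilipins (Plin2, Plin3, Plin4 and Plin5), 3 fatty acid binding proteins (Fabp3, Fabp4 and Fabp5), the lipases Pnpla2 and Lipe, and the fatty acid receptor Cd36. They were chosen by name among 56941 gene IDs, and the choice followed from higher Plin4 and Fabp4 in high glucose in these same libraries. For that reason differences between the media are given below for these genes as a description: how many passed the threshold is set beside the share of all genes, and nothing is read from it. In contrast, the treatment with mogroside V, a sweet-tasting glycoside from monk fruit, had no part in the choice and was tested. Of the 10 genes 7 passed the filter on low counts, and Plin5, Cd36 and Fabp3 did not.

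Lipid droplets are organelles that store triglycerides and sterol esters under a single layer of phospholipid. Perilipins coat that surface and govern how far lipases reach the stored fat, Pnpla2 (ATGL) and then Lipe (hormone-sensitive lipase) cleave triglycerides step by step, and fatty acid binding proteins carry the released or imported fatty acids through the cytosol. In the hypothalamus fatty acids are both fuel and a signal of nutrient state, and in the brain most droplets are found in glia rather than in neurons.

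Polyadenylated RNA was sequenced from cells in 8 groups of 3 libraries. In high glucose these were HG1, HG2 and HG3, with mogroside V at the dose labels 1, 2 and 3, and HGC, its control without the compound. In normal glucose they were NG1, NG2, NG3 and the control NGC. The series design names doses of 15, 60 and 160 µM, but no label ties a number to a dose, and the labels give neither glucose concentrations nor times. All groups share 1 line, labelled only as hypothalamic cells of an adult mouse and called neuronal in the series design, and no label says whether the libraries are from separate cultures. The p-values below therefore measure the spread between libraries, which may be technical. The files of HG2 replicate 3 and HG3 replicate 2 were identical and both were left out, so that 22 libraries were used, 10 in high and 12 in normal glucose, with n = 2 in HG2 and HG3.

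The 22 libraries held 3396249 to 7773074 counts in genes. NG3 replicate 3 had a count for the fewest genes, 16535 where the deepest library had 18935. It and HGC replicate 2 stood apart from their groups in an earlier analysis of these data, and results that rest on them are also given without them. Levels are given as CPM, the count of a gene scaled to the library's total after TMM correction for differences in composition. The neuronal genes Map2, Tubb3 and Stmn2 were present (Map2 40.6 ± 4.81 CPM in high glucose and 53.3 ± 7.11 CPM in normal glucose, SD), but Elavl4 had no count and Rbfox3, Snap25, Syt1 and Dcx had 10, 3, 15 and 7 counts over all 22 libraries. Some genes of fibroblasts and pericytes were abundant, with Col1a2 at 3560 ± 318 CPM in high and 3120 ± 589 CPM in normal glucose. Others were low, with Dcn at 9.08 ± 2.74 CPM in high and 6.54 ± 1.42 CPM in normal glucose. Rgs5 and Lum had 72 and 5 counts over all 22 libraries. The neuronal label and a fibroblast or pericyte one were thus each borne out by only some of their markers. In such bulk libraries fewer cells of a type and less RNA per cell cannot be told apart.

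The promoters of both perilipins that were higher in high glucose are shown first, because perilipin and fatty acid binding protein genes are known targets of the PPAR nuclear receptors. Each line is the 250 bases before the annotated start, from RefSeq on GRCm38.p6, a build that differs from the GRCm39 of the counts, and is written 5′ to 3′ on the gene's own strand. Capitals mark CCAAT or its reverse complement and, in Plin2, the reverse complement of AGGTCA, the letters of a nuclear receptor half-site.
Plin4, chr17:56109783-56110032, minus strand: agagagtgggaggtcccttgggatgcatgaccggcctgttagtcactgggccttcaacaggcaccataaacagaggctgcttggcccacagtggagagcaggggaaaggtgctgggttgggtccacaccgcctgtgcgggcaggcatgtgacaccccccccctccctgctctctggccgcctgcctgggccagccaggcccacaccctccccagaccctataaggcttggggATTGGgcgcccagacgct
Plin2, chr4:86670060-86670309, minus strand: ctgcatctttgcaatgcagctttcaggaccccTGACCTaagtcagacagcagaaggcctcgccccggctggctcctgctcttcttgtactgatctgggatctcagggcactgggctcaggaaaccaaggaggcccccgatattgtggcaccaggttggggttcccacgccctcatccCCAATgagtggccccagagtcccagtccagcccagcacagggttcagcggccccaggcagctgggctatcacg
In Plin4 the CCAAT letters lay on the reverse strand at -18 to -14 from the start. In Plin2 AGGTCA lay on the reverse strand at -218 to -213 and CCAAT on the forward strand at -73 to -69. Both strands were searched in the 10 promoters listed for 8 of the genes, and Fabp4 and Fabp5 have no entry. The full PPAR element letters AGGNCANAGGNCA were in 0 of the 10 promoters and in 0.338% of all 32851 promoters. AGGTCA, which can lie inside the full element and then counts for both, was in promoters of Plin2, Plin5 and Cd36 and in 14% of all promoters. CCAAT was in Plin2, Plin3, Plin4, Plin5 and Cd36 and in 33.8% of all, and the E-box CACGTG was in Lipe and in 6.02% of all. These are matches of letters in a window and say nothing about binding.

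Plin4 coats small nascent droplets and is best known from adipocytes and muscle. Its level was 14.5, 18.3 and 23.5 CPM in HGC, 19.4, 20.6 and 17.3 CPM in HG1, 13.4 and 14.7 CPM in HG2, and 15.3 and 16.6 CPM in HG3. In normal glucose it was 1.57, 2.66 and 6.66 CPM in NGC, 4.24, 4.48 and 8.27 CPM in NG1, 4.49, 4.30 and 3.28 CPM in NG2, and 5.18, 4.17 and 4.95 CPM in NG3. Every high-glucose library lay above every normal-glucose library, and the lowest was HG2 replicate 1. The means were 17.4 ± 3.13 CPM in high glucose (SD, n = 10) and 4.52 ± 1.74 CPM in normal glucose (SD, n = 12), which rested on 45 to 81 reads a library in high glucose and 8 to 36 in normal glucose. The log2 fold change over the 4 treatment levels was 1.91 ± 0.18 (standard error), a 3.75-fold higher level. Plin4 and Plin5 are neighbours on chromosome 17 with 0 protein-coding genes between them in RefSeq, and Plin5 was almost without counts.

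Fabp4 is the fatty acid carrier typical of adipocytes, macrophages and endothelium. It had 12.4, 7.55 and 7.82 CPM in HGC, 19.4, 21.4 and 15.3 CPM in HG1, 12.8 and 9.03 CPM in HG2, and 14.5 and 9.98 CPM in HG3. In normal glucose Fabp4 had 1.96, 1.21 and 5.23 CPM in NGC, 1.59, 1.12 and 1.65 CPM in NG1, 0.748, 4.30 and 1.64 CPM in NG2, and 3.45, 2.32 and 2.97 CPM in NG3. Here too the media did not overlap, and the 3 HG1 libraries were the highest of all. Fabp4 averaged 13.0 ± 4.73 CPM in high glucose and 2.35 ± 1.38 CPM in normal glucose, a log2 fold change of 2.46 ± 0.23 over the 4 levels. Its counts were low in normal glucose, with 119 reads over 12 libraries, against 478 reads over 10 high-glucose libraries.

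**Figure D1:**
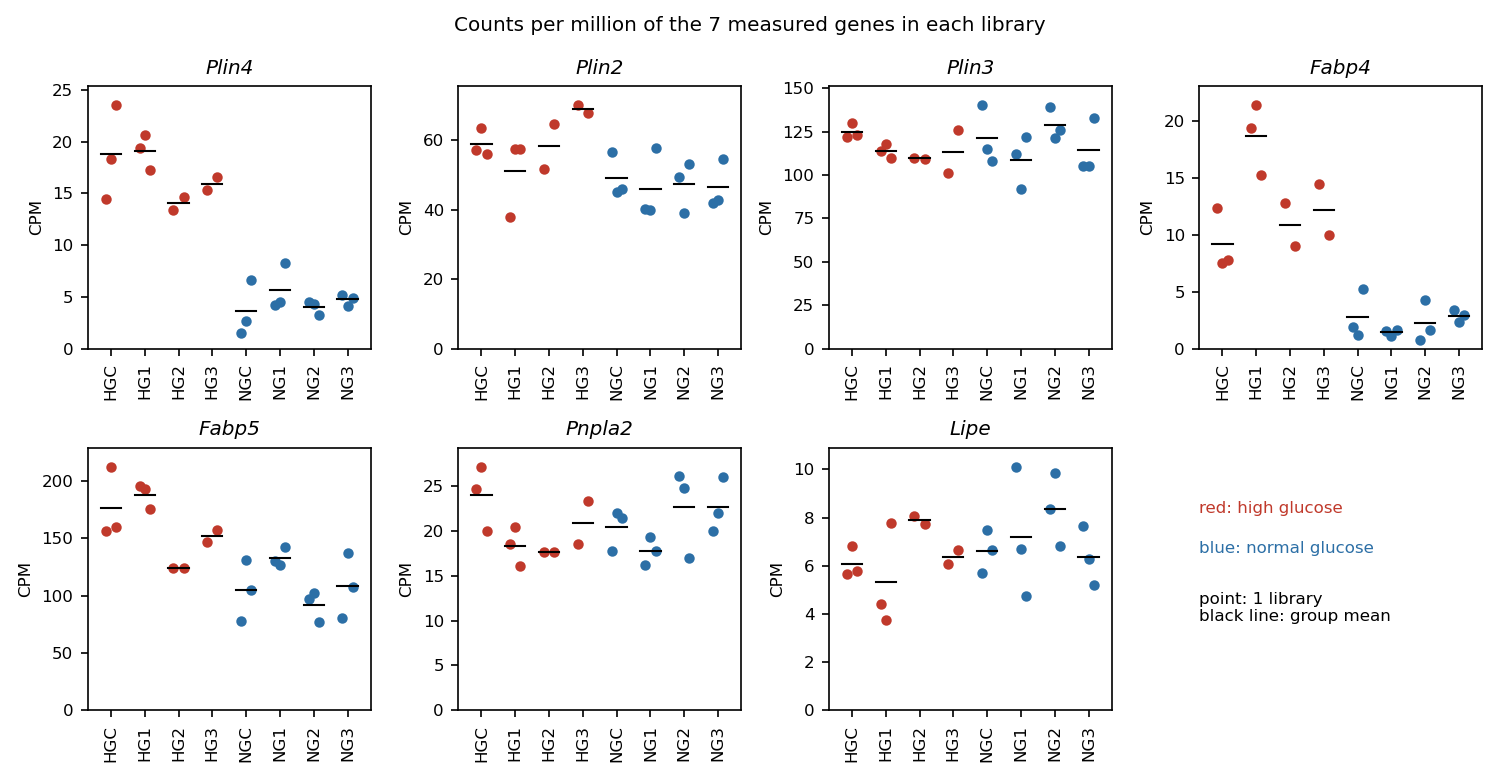
CPM of the 7 genes past the filter in each of the 22 libraries (vertical axis, from 0) by group (horizontal axis), with a black line at each group mean, high glucose in red and normal glucose in blue. Plin4 and Fabp4 are separated by medium, with high-glucose libraries at 13.4 CPM and above for Plin4 and 7.55 CPM and above for Fabp4, while the media overlap for the other 5 genes.

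Both genes kept a higher level in high glucose at each treatment level. The values varied by level, but no test of whether treatment differed between the media passed for either gene. For Plin4 the log2 fold change was 2.39 ± 0.34 for HGC against NGC, 1.73 ± 0.33 for HG1 against NG1, 1.78 ± 0.37 for HG2 against NG2 and 1.74 ± 0.36 for HG3 against NG3. For Fabp4 it was 1.72 ± 0.43 for HGC against NGC, 3.65 ± 0.47 for HG1 against NG1, 2.41 ± 0.48 for HG2 against NG2 and 2.07 ± 0.46 for HG3 against NG3. NGC replicate 3 was the highest NGC library for both genes, and without it the values for HGC against NGC were 3.15 for Plin4 and 2.50 for Fabp4. The order of the levels therefore rested on that library for Fabp4, whose control level had the smallest of the 4 values with it but not without it.

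**Figure D2:**
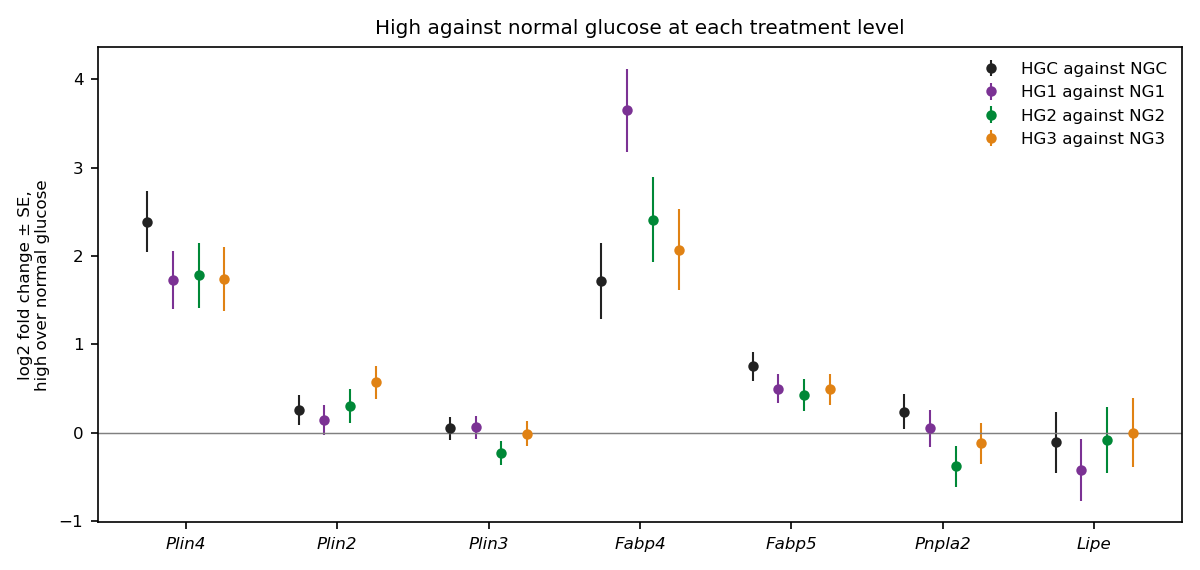
Log2 fold change of high over normal glucose with its standard error (vertical axis) for the 7 genes (horizontal axis), with 1 point for each of the 4 treatment levels. Plin4 lies between 1.73 and 2.39 and Fabp4 between 1.72 and 3.65, and the other 5 genes lie within 0.75 of 0.

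Fabp5, a fatty acid carrier of epidermis, glia and neurons, was the most abundant of the 10 genes per length of transcript. It had 156, 212 and 160 CPM in HGC, 195, 193 and 175 CPM in HG1, 124 and 124 CPM in HG2, and 147 and 157 CPM in HG3. Normal-glucose libraries had 78.1, 131 and 105 CPM in NGC, 130, 127 and 142 CPM in NG1, 96.6, 102 and 76.9 CPM in NG2, and 80.4, 137 and 107 CPM in NG3. The media overlapped for Fabp5 only through HG2, whose libraries lay below 5 of the 12 normal-glucose libraries. Over the 4 levels the log2 fold change was 0.54 ± 0.09, with 164 ± 29.5 CPM in high glucose and 109 ± 23.7 CPM in normal glucose. Within the transcript 5.48% of 50-base runs also occur in other annotated genes, Gm6166 among them, so a part of its reads may have been split or dropped in counting.

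Plin2, the perilipin found on droplets of most cell types, ran from 37.9 to 70 CPM in high glucose with a median of 57.6 CPM, and from 39.2 to 57.9 CPM in normal glucose with a median of 45.5 CPM. The normal-glucose range lay wholly inside the high-glucose one, and HG1 replicate 1, at 37.9 CPM, was the lowest of all 22 libraries. The log2 fold change of Plin2 was 0.32 ± 0.09, and by level it was smallest at dose label 1 (0.14 ± 0.17) and largest at dose label 3 (0.57 ± 0.19). Plin3, which shuttles between cytosol and young droplets, had 116 ± 8.96 CPM in high glucose and 118 ± 14.8 CPM in normal glucose (log2 -0.03 ± 0.07, 95% interval -0.17 to 0.10). Among the 3 perilipins past the filter the differences thus ran from none detectable for Plin3 to 3.75-fold for Plin4.

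The lipases overlapped between the media. Pnpla2, which removes the first fatty acid from a triglyceride, averaged 20.4 ± 3.54 CPM in high and 20.8 ± 3.47 CPM in normal glucose (log2 -0.05 ± 0.11, 95% interval -0.27 to 0.17). Lipe, which takes the diglyceride further, averaged 6.28 ± 1.44 CPM in high and 7.13 ± 1.67 CPM in normal glucose (log2 -0.16 ± 0.18, 95% interval -0.52 to 0.21). These intervals leave room for modest differences in either direction. For Lipe 15.6% of its exon length overlaps the antisense gene 4732471J01Rik, and without a stated strand setting reads of that stretch cannot be told apart.

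Plin5 and Cd36, with a mean under 1 CPM in every group, were too low to judge, and Fabp3 did not pass the count filter. Plin5, the perilipin of oxidative tissues, had 0 reads in 10 high-glucose libraries, which allows up to 0.0799 CPM over the group, and 2 reads in 12 normal-glucose libraries, both in NG3 replicate 2. Cd36, a receptor that takes up long-chain fatty acids, had 2 reads in high and 6 in normal glucose, a ratio of 0.466 with a counting interval of 0.046 to 2.61. Fabp3, the heart-type carrier, had 19 reads in high and 1 in normal glucose, a ratio of 26.6 with a counting interval of 4.22 to 1100. Of the 19 reads 9 came from HGC replicate 2, and without that library 10 reads were left, a ratio of 15.8 (2.24 to 684). Fabp3 reached 1.01 ± 1.03 CPM in HGC, just over that limit. Its transcript shares 37.3% of 50-base runs with other genes, mostly the pseudogene Fabp3-ps1. Such intervals cover counting error only.

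Scaled by transcript length, the levels in high glucose ran from Fabp5 (166 ± 29.9 CPM per kb) through Plin3 (31.8 ± 2.46), Plin2 (30.9 ± 4.90), Fabp4 (14.5 ± 5.28), Pnpla2 (11.3 ± 1.97) and Plin4 (3.02 ± 0.544) to Lipe (1.74 ± 0.399). In normal glucose the order was Fabp5 (110 ± 24 CPM per kb), Plin3 (32.4 ± 4.06), Plin2 (25.1 ± 3.63), Pnpla2 (11.6 ± 1.93), Fabp4 (2.62 ± 1.54), Lipe (1.97 ± 0.462) and Plin4 (0.785 ± 0.302). Plin3 and Plin2, and Fabp4 and Pnpla2, were neighbours within their SD in high glucose. Fabp4 and Lipe were within their SD in normal glucose. Despite the largest differences between media, Plin4 and Fabp4 thus stayed well under Fabp5 and under Plin2 and Plin3 per length.

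Across all tested genes 10.1% passed the threshold (adjusted p of 0.05 in edgeR's quasi-likelihood test) between the media over the 4 levels, 5.71% as higher in high glucose, beside 4 of the 7 genes here (Plin2, Plin4, Fabp4 and Fabp5, all higher). Plin2 no longer passed without HG2 replicate 2 (log2 0.28). For HGC against NGC 2.28% of all genes passed, 1.89% as higher, beside 3 of the 7 (Plin4, Fabp4 and Fabp5). Since the choice of genes used this contrast, nothing is read from either count. Without HGC replicate 2 and NG3 replicate 3, Fabp5 no longer passed for HGC against NGC (log2 0.61). Without NGC replicate 1 Plin4 alone passed, Fabp4 was also lost without NGC replicate 2 or HGC replicate 1, and Fabp5 without HGC replicate 2. Of all genes 0.783% had every high-glucose library above every normal-glucose library, as Plin4 and Fabp4 did. For HGC above NGC that share was 8.95%, and Plin4, Fabp4 and Fabp5 were among these genes.

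Mogroside V was compared within each medium, with the question whether it changes these genes. None of the 7 genes passed the threshold in any of 9 edgeR comparisons, which were treated against control in each medium (0% of all genes called in either), each dose label against its control (0% in HG1, HG2, HG3 and NG1, 0.00753% in NG2 and 0.128% in NG3) and the difference between media (0.00753%). DESeq2 called 0 of them as well, with no adjusted p for 3 of the 7 in NG2 against NGC and for 4 of the 7 in NG3, NG treated, HG1 and the difference between media. At an unadjusted p under 0.05 there was 1 gene each in HG1 against HGC (7.78% of all genes), HG2 against HGC (5.35%) and NG1 against NGC (4.88%). There were 0 in HG3 (4.51% of all genes), NG2 (6.46%) and NG3 (10.4%) against control, in HG treated (5.11%) and NG treated (8.43%) against control, and in the difference between media (8.48%).

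Fabp4 had the largest of these differences. In HG1 it averaged 18.7 ± 3.12 CPM, against 9.25 ± 2.7 CPM in HGC (SD, n = 3 each), and all 3 HG1 libraries lay above all 3 HGC libraries, as was so for 7.38% of all genes. Fabp4's log2 fold change of 1.02 ± 0.38 (95% interval 0.26 to 1.77) had an unadjusted p of 0.00994 and an adjusted p of 0.484 in edgeR over all genes, and so did not pass. In NG1 Fabp4 averaged 1.45 ± 0.292 CPM, against 2.80 ± 2.14 CPM in NGC, and these groups overlapped (log2 -0.91 ± 0.55, adjusted p = 0.987 in edgeR). The treatment differences in the 2 media thus had opposite signs at dose label 1, and the test of their difference gave 1.92 ± 0.66 with an unadjusted p of 0.006 and an adjusted p of 0.441 in edgeR. Without NGC replicate 3, whose 5.23 CPM lay above all other NGC and NG1 libraries, Fabp4 had -0.14 ± 0.61 in NG1 against NGC and the difference between the media was 1.15 ± 0.72 (unadjusted p = 0.116, adjusted p = 0.745 in edgeR). These tests by dose label were added after the data were seen. Over all dose labels the difference between media was 0.99 ± 0.53 (adjusted p = 0.628, edgeR) and was 0.21 without NGC replicate 3. Since HGC against NGC shares these control libraries, the values by glucose and by treatment are not separate evidence.

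Plin4 had no difference beyond the spread in HG1, HG2 or HG3 against HGC, with log2 fold changes of 0.03 ± 0.29, -0.41 ± 0.34 and -0.23 ± 0.33. Against NGC it had 0.68 ± 0.38 in NG1, 0.20 ± 0.38 in NG2 and 0.42 ± 0.38 in NG3, all with the positive sign, and over the 3 dose labels 0.43 ± 0.32 (95% interval -0.20 to 1.07, adjusted p = 0.787, edgeR). Its value rested on NGC: without NGC replicate 3 it was 1.20 with an adjusted p of 0.171, and without NGC replicate 1 it was 0.04, and edgeR gave no pass in either. The difference between media for Plin4 was -0.64 ± 0.40 (adjusted p = 0.70, edgeR).

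**Figure D3:**
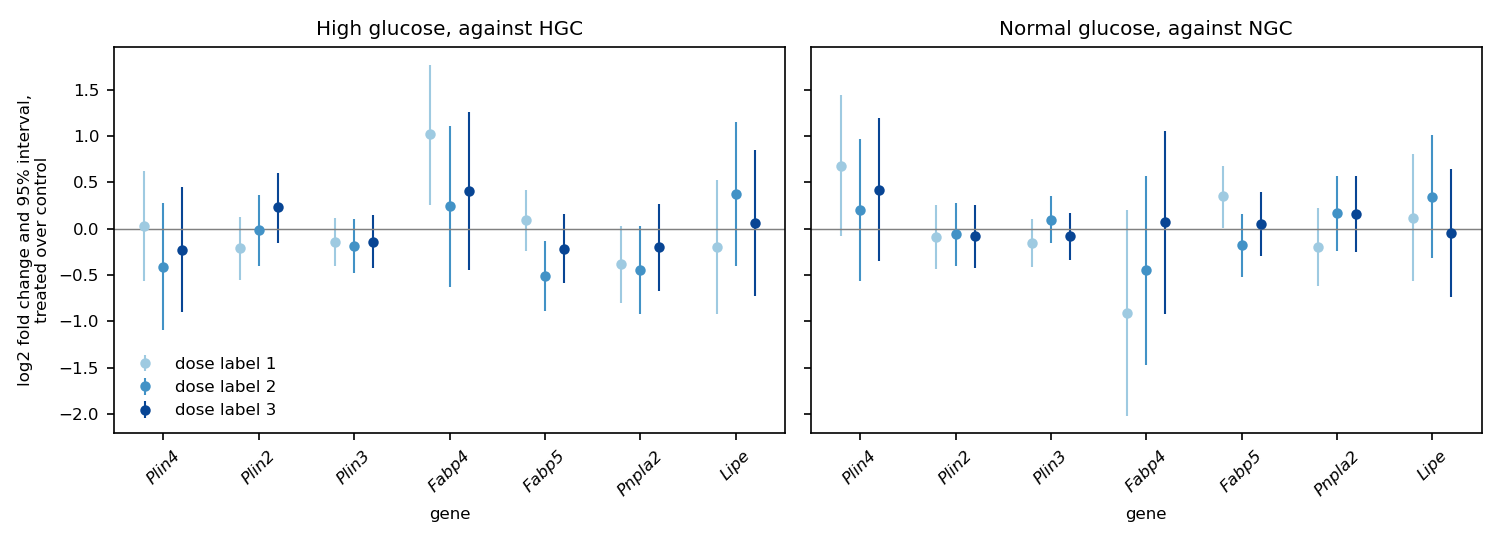
Log2 fold change of each dose label over its control with a 95% interval (vertical axis) for the 7 genes (horizontal axis), in high glucose (left) and in normal glucose (right). The interval excludes 0 for Fabp4 in HG1 (0.26 to 1.77), Fabp5 in HG2 (-0.89 to -0.13) and Fabp5 in NG1 (0.01 to 0.68), and for none of them does the adjusted p pass.

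Fabp5 had values of either sign by dose label. HG2 libraries were at 124 and 124 CPM, against 156, 212 and 160 CPM in HGC, a log2 fold change of -0.51 ± 0.18 with an unadjusted p of 0.0102 and an adjusted p of 0.879 in edgeR. NG1 libraries were at 130, 127 and 142 CPM, against 78.1, 131 and 105 CPM in NGC, a log2 fold change of 0.35 ± 0.16 with an unadjusted p of 0.0431 and an adjusted p of 0.987 in edgeR. HG1 against HGC gave 0.09 ± 0.16 and NG2 against NGC gave -0.18 ± 0.17 for the same gene. Pnpla2 had a negative value at all 3 dose labels in high glucose, -0.38 ± 0.21, -0.45 ± 0.24 and -0.20 ± 0.23, and over them the value was -0.34 ± 0.17 (95% interval -0.69 to 0.01, adjusted p = 0.952, edgeR). Plin2, Plin3 and Lipe had intervals that included 0 at every dose label in both media. Plin3 had every HG1 library below every HGC library (114, 118 and 110 CPM in HG1, against 122, 130 and 123 CPM in HGC), as had 6.93% of all genes, with a log2 fold change of -0.14 ± 0.13.

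Adipocyte and macrophage markers were looked at because Fabp4 marks both cell types. Over 9 adipocyte markers the summed level ran from 5.27 to 13.6 CPM in high-glucose and from 6.48 to 14.5 CPM in normal-glucose libraries. Lep and Cidec had no count in any library, and Adipoq and Cfd had 4 counts and 1 count over all 22 libraries. Pparg, the nuclear receptor that drives fat cell formation, was at 7.42 ± 2.73 CPM in high and 7.42 ± 2.0 CPM in normal glucose. Over 12 markers of macrophages and microglia the sum ran from 13.2 to 28.3 CPM in high and from 10.9 to 26.0 CPM in normal glucose. Itgam had no count, and Tyrobp and Adgre1 had 6 and 8. Csf1r, the receptor for colony stimulating factor, passed the edgeR threshold over the 4 levels and rose in high glucose by a log2 of 0.88 ± 0.22. That call was lost without HG3 replicate 3 (adjusted p = 0.0607, edgeR). For HGC against NGC Csf1r had 0.17 ± 0.42 and did not pass. The other tested markers of this list did not pass over the 4 levels: Lyz2 had 0.22 ± 0.46, Cx3cr1 -0.06 ± 0.28 and Cd68 -0.1 ± 0.34. The part of Csf1r in the Fabp4 difference was not tested. Over 9 endothelial markers the sum was 53.9 to 75 CPM in high and 52.3 to 70.6 CPM in normal glucose, with 1 count for Cdh5. Flt1 made up most of that sum, at 53.6 ± 7.42 CPM in high and 50.6 ± 5.35 CPM in normal glucose. Kdr had 0.938 ± 0.559 CPM in high and 0.304 ± 0.389 CPM in normal glucose, from 53 counts over all libraries. Tek had 0.859 ± 0.862 CPM in high and 0.318 ± 0.406 CPM in normal glucose, from 47 counts. Neither passed the count filter, so neither was tested. Emcn, a glycoprotein of endothelial cells, fell to 0.742 ± 0.493 CPM in high glucose, against 2.09 ± 1.06 CPM in normal glucose (log2 -1.55 ± 0.49). Its call was lost when any 1 of 10 libraries was left out (NGC replicates 2 and 3, NG1 replicate 1, NG2 replicates 1 and 3, HGC replicate 3, HG1 replicates 2 and 3, HG2 replicate 1 and HG3 replicate 3), with an adjusted p of up to 0.126 in edgeR. Over 7 markers of astrocytes and tanycytes the sum ran from 137 to 196 CPM in high and from 157 to 262 CPM in normal glucose, with no count for Aqp4 and 5 counts for Gfap. Nearly all of it was Sox9, a transcription factor also made by other cell types, which fell to 163 ± 19 CPM in high glucose, against 190 ± 27.1 CPM in normal glucose (log2 -0.21 ± 0.07). Its call was lost when any 1 of 13 libraries was left out (NGC replicate 1, NG1 replicates 1 and 2, NG2 replicates 1 and 3, NG3 replicate 1, HGC replicates 1 and 2, HG1 replicates 1 and 2, HG2 replicates 1 and 2 and HG3 replicate 3), with an adjusted p of up to 0.166 in edgeR. Over 11 neuronal markers the sum was 115 to 138 CPM in high and 120 to 162 CPM in normal glucose. The dendritic microtubule gene Map2 was lower in high glucose by the edgeR threshold over the 4 levels (log2 -0.39 ± 0.08). For HGC against NGC Map2 had -0.1 ± 0.15 and did not pass. Over the 4 levels the other tested neuronal markers did not pass and had either sign: Nefm 0.64 ± 0.25, Stmn2 0.05 ± 0.12, Nefl -0.05 ± 0.34 and Tubb3 -0.21 ± 0.08. Fibroblast and pericyte markers summed to 4700 to 5960 CPM in high and 3240 to 5550 CPM in normal glucose. Col1a2 and Col1a1 made up most of that sum. Among these markers Postn (log2 0.69 ± 0.08) and Col1a1 (0.23 ± 0.06) rose over the 4 levels. The other tested markers of this list did not pass there: Dcn had 0.4 ± 0.18, Col1a2 0.19 ± 0.09, Pdgfrb 0.1 ± 0.06, Pdgfra -0.05 ± 0.09 and Thy1 -0.09 ± 0.09. Rgs5 and Lum did not pass the count filter. The part of these markers in the differences was not tested either.

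Most of the wider pathway did not pass the test. Of 101 other lipid genes in 5 lists 72 were tested between the media, 8 rose and 2 fell in high glucose, which is 13.9% called beside 10.1% of all genes, with a median log2 fold change of 0.01. Among droplet assembly and coat genes 3 of 13 rose and 0 fell, with a median of 0.07. They were Vps13c, which bridges membranes to transfer lipid (29.8 ± 2.59 CPM in high and 20.1 ± 4.61 CPM in normal glucose, log2 0.59 ± 0.11), and the vesicle GTPases Rab7 (0.26 ± 0.06) and Rab8a (0.21 ± 0.06), which do much else in the cell. For HGC against NGC 0 of these 13 genes passed, beside 2.28% of all genes, and Vps13c had 0.28 ± 0.21. The adipocyte coat gene Plin1 had 41 counts over all libraries, and Cidea, Cideb, Cidec and Fitm1 had none.

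Of 17 tested genes of triglyceride and sterol ester synthesis 2 rose and 0 fell, with a median log2 fold change of 0.00. Of all genes 5.71% rose. Lpin1, a phosphatidate phosphatase that makes diglyceride, had 24.7 ± 3.59 CPM in high and 16.7 ± 3.02 CPM in normal glucose (log2 0.58 ± 0.12 over the 4 levels). Acsl3, the acyl-CoA synthetase of growing droplets, had 112 ± 16.4 CPM in high and 87.4 ± 8.91 CPM in normal glucose (0.32 ± 0.07). The enzymes of the last step, Dgat1 and Dgat2, had 0.16 ± 0.11 and 0.10 ± 0.22 and did not pass. For HGC against NGC, where 2.28% of all genes passed, 0 genes of this list rose and 1 fell. It was Lpin3, another phosphatidate phosphatase, at 0.641 ± 0.674 CPM in HGC, against 4.76 ± 1.43 CPM in NGC (log2 -2.87 ± 0.75). That call was lost without NGC replicate 1 or 3 or HGC replicate 2 or 3, with an adjusted p of up to 0.191 in edgeR. Of 10 tested lipases and regulators none passed in edgeR, and 1 had an unadjusted p under 0.05. Among them were Abhd5, the coactivator of Pnpla2 (0.05 ± 0.12), and the inhibitors of Pnpla2, G0s2 (0.24 ± 0.26) and Hilpda (0.23 ± 0.11).

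Of 12 tested carriers and uptake genes 2 rose and 1 fell, where 10.1% of all genes passed, 5.71% as higher. Dbi, which binds acyl-CoA, had 376 ± 26.8 CPM in high and 288 ± 32.1 CPM in normal glucose (log2 0.37 ± 0.06). Slc27a3, of the fatty acid transport protein family, fell to 4.95 ± 2.01 CPM in high glucose, against 8.09 ± 1.33 CPM in normal glucose (-0.72 ± 0.20), but did not pass without HG3 replicate 1 (adjusted p = 0.0818, edgeR). Dbi also rose for HGC against NGC. Of 21 tested PPAR and fatty acid oxidation genes 1 rose and 1, Rxrb, a partner of PPARs, fell (-0.29 ± 0.09). The call of Rxrb was lost when any 1 of 7 libraries was left out (NG1 replicate 2, NG2 replicate 1, NG3 replicate 3, HGC replicate 3, HG1 replicate 2, HG2 replicate 2 and HG3 replicate 3), with an adjusted p of up to 0.132 in edgeR. The PPAR targets Angptl4, Pdk4 and Cpt1a had 0.04 ± 0.26, -0.13 ± 0.35 and -0.05 ± 0.09, and none passed. With mogroside V 0 of the 72 genes passed in any of the 9 edgeR comparisons, and 2 to 6 had an unadjusted p under 0.05 in each, beside 4.51% to 10.4% of all genes.

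**Figure D4:**
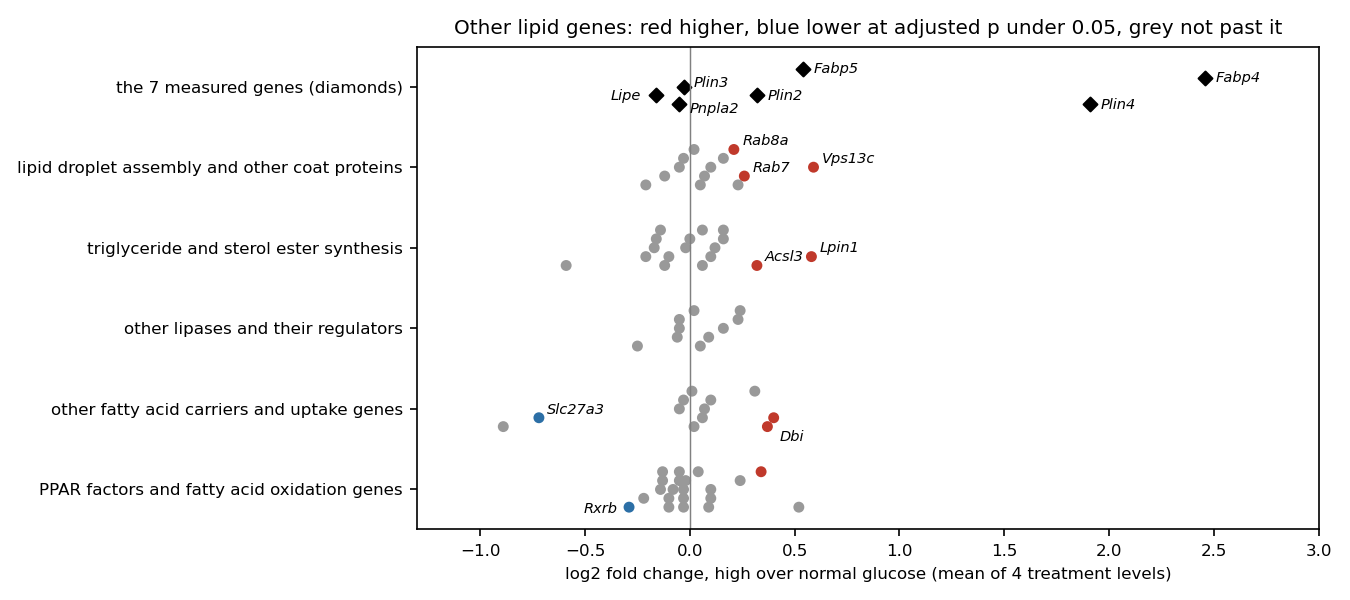
Log2 fold change of high over normal glucose (horizontal axis) for the 7 genes past the filter (diamonds, top) and for the tested genes of 5 lists of other lipid genes (dots, 1 line per list). Names are given for those dots that passed the threshold and are described in the text. Plin4 (1.91) and Fabp4 (2.46) lie beyond every listed gene, of which the highest that passed was Vps13c at 0.59.

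The genes whose levels over the 22 libraries were most like those of Plin4, among 10200 genes with a mean of at least 5 CPM, were Mfsd1 (Pearson r = 0.96), Thbs2 (0.93), Mmp3 (0.93), Hmgcs1 (0.92) and Mt1 (0.92), all of log2 CPM. After group means were removed, r was 0.67, 0.52, 0.18, 0.65 and 0.26. For Fabp4 they included Grem1 (0.92), Atp6ap2 (0.90), Msmo1 (0.89) and Tfrc (0.88), and within groups 0.64, 0.22, 0.13 and 0.10. For Plin2 they were Ankrd13b (0.75), Erp29 (0.74), Gadd45b (0.74), Steap3 (0.74) and Ets2 (0.73). The libraries of a medium share that medium, and r was lower within groups for each of these genes. No relation of Plin4 with Fabp4 was detected within a medium: r was 0.02 over 10 high-glucose libraries (Spearman rho 0.09, permutation p = 0.953 and 0.812) and 0.28 over 12 normal-glucose libraries (rho 0.32, permutation p = 0.378 and 0.31). After Benjamini-Hochberg adjustment over the permutation p-values of r and rho in both media, p was 0.953 in high and 0.757 in normal glucose for r. Without the 2 libraries farthest from the median of Plin4, r was 0.50 in high and 0.60 in normal glucose.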

How the data were processed

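Per the submitters' processing notes, the tools were STAR 2.7.5c and HTSeq 1.99.2 on GRCm39, with FastQC 0.11.9 and DESeq2 3.16. The authors deposited whole-number read counts per gene, 1 file per library, not normalized. Whether counting used strand is not stated there. HTSeq's 5 summary lines (reads outside genes took 14.4 to 20.6%) stayed out of library sizes and tests.

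Counts were tested with edgeR 4.0.16 in R 4.3.3: TMM factors, filterByExpr defaults by group (13281 genes kept), group means, robust quasi-likelihood F tests and Benjamini-Hochberg adjustment over all genes, threshold 0.05, with a standard error from the F statistic. Groups and replicate numbers came from the titles. The 10 genes and the gene lists were chosen with earlier results of these data known. All 10 genes are named, and of each list those past the threshold, up to 4, defining markers near 0 and, beside them, some others. A few genes that met these rules are not reported here. Alternatives were DESeq2 1.42.0, RLE factors, no filter, only the groups compared, a replicate block, each library left out, the identical file in HG2, HG3 or both, and leaving out both libraries that stood apart. Same-numbered libraries did not deviate together (median r of 0.0107 over 70 pairs, and -0.00508 over 141 other pairs). Spart was matched through its older symbol, and Ldaf1 was not matched. Transcript lengths and overlaps are from GENCODE for GRCm38. The pipeline was tested on simulated counts.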

Additional observations from a re-analysis of the deposited data

Results flagged for a closer look

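The identical file that stood under 2 titles, both of high glucose, was used in no comparison of the report and entered only alternative fits. For some of the genes it lay above every normal-glucose library. The share of all genes for which it did so was not counted. Since the genes were chosen for this contrast, nothing is read from these values. Plin4 was at 13 CPM in the file, against a highest normal-glucose value of 8.22 CPM. That was below every other high-glucose library, of which the lowest had 13.4 CPM. Fabp4 was at 9.18 CPM, against at most 5.23 CPM in normal glucose. Fabp5 was at 161 CPM, against at most 141 CPM, and Fabp3 was at 1.9 CPM from 6 reads, against at most 0.235 CPM. For Plin2, at 53.8 CPM, the file lay within the normal-glucose range, which reached 57.6 CPM. Which dose label the library belongs to was not tested. All values here are scaled with that file included, so the normal-glucose values differ slightly from those of the 22 libraries alone.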

How the results depend on the processing

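Between the media over the 4 levels 4 of the genes passed under each of 8 alternatives, and 3 to 4 when each of 22 libraries was left out: Plin2 was lost without HG2 replicate 2 (log2 0.28). Since the genes were chosen for this contrast, these counts are no support for it. For HGC against NGC 3 passed, 2 without both libraries that stood apart, and 1 to 3 with each library left out, with 1 without NGC replicate 1. Listed lipid genes past the threshold numbered 10 (8 to 14) over the 4 levels and 3 (2 to 5, with 5 without NG3 replicate 3) for HGC against NGC. In the main fit these were 13.9% and 4.17% of the 72 tested, beside 10.1% and 2.28% of all genes. With the replicate number as a block 4 and 3 of the genes passed, and the block changed no call among them. None of the 7 tested genes passed for treatment under any alternative, as far as an adjusted p was given (DESeq2 left it out for 3 or 4 of the 7 in 5 comparisons). In normal glucose, with each library left out, treated against control changed sign for Plin2 (-0.15 to 0.04), Plin3 (-0.12 to 0.07), Fabp4 (-0.77 to 0.34), Fabp5 (-0.11 to 0.26) and Pnpla2 (-0.05 to 0.10). The same held for Lipe in high glucose (-0.05 to 0.17), and for Plin2 (-0.04 to 0.15) and Lipe (-0.18 to 0.05) in the difference between media. Plin2 in high glucose, at 0 in the main fit, ran from -0.06 to 0.06. The cause was not tested. Counts over all genes were less stable: HGC against NGC had 303, and 163 to 421 with 1 library left out (163 without NGC replicate 1). NG treated had 0, and 62 with DESeq2. NG3 had 17, and 0 to 186, HG1 had 0, and up to 50, NG2 had 1, and up to 21, and the difference between media had 1, and up to 42. HG treated, HG2 and HG3 had 0, and up to 5, 2 and 3. The low-count filter removed Plin5, Cd36 and Fabp3, with 2, 8 and 20 reads over all libraries, and Plin4 and Fabp4 had as few as 8 and 4 reads in a library.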
